A study of Rattus norvegicus with 12 samples.

Results

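The miR-29 family was followed through cultured rat cortical neurons in which Staufen2 or Pumilio 2 had been depleted. Its members were found by name, as every miRNA name of the deposited tables that begins with rno-miR-29a, rno-miR-29b or rno-miR-29c and ends in an arm suffix. This gave 6 of 685 miRNA names: rno-miR-29a-3p, rno-miR-29a-5p, rno-miR-29b-3p, rno-miR-29b-5p, rno-miR-29c-3p and rno-miR-29c-5p, written below without the species prefix. The family itself was selected on measured values: its counts were already known to be lower in the shStau2 libraries than in the shNTC and shPum2 libraries. The values of shStau2 against either control are therefore a description, given without p-values. Counts of calls in those comparisons support nothing about the family, and neither do groups that do not overlap. The share of all miRNAs without overlap between groups was not computed.

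The neurons came from embryonic day 17 cortices of Sprague Dawley rats and were plated at 100000 cells per square centimetre. A lentivirus was added to every culture after 10 days in vitro, and RNA was taken at 14 days. The virus expressed a short hairpin RNA against Stau2 (shStau2), an shRNA against Pum2 (shPum2), or a non-targeting shRNA (shNTC), with 4 libraries in each group that the labels call biological replicates. Staufen2 recognises double-stranded stretches of RNA, and Pumilio 2 binds single-stranded motifs in mRNAs. The shPum2 cultures served as an additional control for changes that an shRNA brings by itself. The cultures are mixed primary cultures of dissociated cortex, so other cells of the cortex can be present, and the mRNAs of Stau2 and Pum2 were not analysed here.

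MiR-29 miRNAs are made from 2 hairpin pairs, each pair from a shared primary transcript. The 3p strand of each hairpin is the guide that Argonaute proteins usually keep, and the 5p strand is the partner that is mostly discarded. In mice the family rises as neurons mature, where it represses mRNAs of pro-apoptotic BH3-only proteins, and the same guides are known to repress DNA methyltransferases and collagens. Astrocytes express miR-29 as well. In mice and fish miR-29b is also a known target of directed decay, triggered by a near-complementary site in the Nrep transcript or its fish relative.

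The sequences show which strands can be told apart in such tables and which locus each strand comes from. They are RefSeq mature sequences of build GRCr8, written 5′ to 3′ with the seed (bases 2 to 8, counted from the 5′ end) in capitals, and all 6 members were matched.
miR-29a-3p: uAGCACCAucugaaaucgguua
miR-29b-3p: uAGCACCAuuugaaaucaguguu
miR-29c-3p: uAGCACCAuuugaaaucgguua
miR-29a-5p: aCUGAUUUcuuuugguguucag
miR-29b-5p: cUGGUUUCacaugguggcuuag
miR-29c-5p: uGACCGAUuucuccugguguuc

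The 3 guides share the seed AGCACCA, and no other name among the 693 mature rat miRNAs of the RefSeq table has it. Counted from 1 at the 5′ end, miR-29c-3p differs from miR-29a-3p by the single substitution C10U, so 21 of 22 positions are identical. MiR-29b-3p differs from miR-29a-3p by C10U, G18A, U21G and A22U, and from miR-29c-3p by G18A, U21G and A22U, and it is 23 bases long against 22 for the other two. The 3′ end of miR-29b-3p holds the letters AGUGUU from position 18, a hexamer known in human cells to direct this miRNA to the nucleus. Read on the strand as written, AGUGUU occurs in 8 of the 693 mature sequences (1.15%) and in no other member. The 3 partner strands have different seeds, and the longest run that miR-29a-5p and miR-29c-5p share is 8 bases. Reads of miR-29a-3p and miR-29c-3p may have been exchanged in the counting, and values of either name alone carry that uncertainty.

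The hairpins are shown with both annotated mature strands in capitals, because they tie each counted strand to a locus.
Mir29a, GRCr8 chr4:60617955-60618042, minus strand: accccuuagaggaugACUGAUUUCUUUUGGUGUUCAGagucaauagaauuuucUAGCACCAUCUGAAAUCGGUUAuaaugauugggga
Mir29b1, GRCr8 chr4:60618334-60618414, minus strand: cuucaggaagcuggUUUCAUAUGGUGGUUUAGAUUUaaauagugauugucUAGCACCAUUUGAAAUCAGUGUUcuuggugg
Mir29b2, GRCr8 chr13:109098831-109098911, plus strand: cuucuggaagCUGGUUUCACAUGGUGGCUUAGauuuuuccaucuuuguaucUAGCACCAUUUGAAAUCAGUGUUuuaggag
Mir29c, GRCr8 chr13:109099359-109099446, plus strand: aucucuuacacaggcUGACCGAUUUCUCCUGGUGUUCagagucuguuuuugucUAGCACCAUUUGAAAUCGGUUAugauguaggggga

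Mir29a and Mir29b1 lie 291 bases apart on chromosome 4, and Mir29b2 and Mir29c lie 447 bases apart on chromosome 13. The counted miR-29a strands thus come from chromosome 4 alone, and miR-29b-5p, miR-29c-3p and miR-29c-5p from chromosome 13 alone. The name miR-29b-5p belongs to Mir29b2 in RefSeq. The partner strand of Mir29b1, miR-29b-1-5p, was not analysed here. MiR-29b-3p has the same sequence in both hairpins, so its count adds the 2 loci.

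Library totals lay between 3836349 and 5415763 counts, and the miR-29 members took 0.472% to 1.27% of a library's miRNA counts. The 5 most abundant miRNAs took 51.1% to 54.3%. Levels are given as CPM scaled by the trimmed mean of M-values, which are shares of a library's miRNA counts and not amounts per cell. The 8 miRNAs listed as neuronal markers summed to 297900 to 338900 CPM in shStau2, 286300 to 345200 in shPum2 and 279700 to 329600 in shNTC libraries. In bulk samples such as these, fewer cells of a type and less RNA per cell cannot be told apart. No source used here says whether the replicates came from separate neuron preparations, so p-values measure the spread between these libraries. For some miR-29 strands 2 libraries stood apart from their own group, shStau2 replicate 4 and shPum2 replicate 2, and values without them are given for the strands on which they stood apart.

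In control neurons the guides were abundant and the partners scarce. The highest member was rno-miR-29a-3p with 7389 ± 1402 CPM in shNTC (SD, n = 4), rank 18 of the 628 miRNAs tested. It was followed by rno-miR-29b-3p at 1480 ± 142 CPM, rank 60, and rno-miR-29c-3p at 1172 ± 91.6 CPM, rank 73. The partners ran in the opposite order, with rno-miR-29c-5p at 80.6 ± 9.07 CPM, rno-miR-29b-5p at 42.2 ± 3.51 CPM and rno-miR-29a-5p at 18.6 ± 2.29 CPM. No neighbours in this order overlapped across the 4 shNTC libraries. All 6 sequences are 22 or 23 bases long, so read length hardly enters, but how efficiently each sequence was ligated and amplified was not measured.

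The precision of a single library differed greatly between strands. The 95% counting interval (Clopper-Pearson) of miR-29a-3p spanned at most ± 1.65% of its value in any library, that of miR-29b-3p at most ± 4.3% and that of miR-29c-3p at most ± 3.29%. For miR-29a-5p, which rested on 23 to 101 counts, it spanned up to ± 43.3%. Its lowest library, shStau2 replicate 2 with 23 counts, had 5.34 CPM with an interval of 3.38 to 8.01 CPM.

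The comparison of shStau2 with shNTC asked which miRNAs Stau2 depletion changed. All 6 members had lower means in shStau2, with a median log2 fold change of -0.52 over the 6, against 0.00 over the 628 miRNAs tested. The 2 lowest ratios were those of miR-29a-5p and miR-29b-3p, and the strands of Mir29c differed least. In edgeR's quasi-likelihood fit over all 12 libraries 2 of the 6 members were called lower at an adjusted p of 0.05, where 0.318% of all miRNAs were called lower. They were the only calls among the 628 miRNAs in that fit. With the replicate number as a block 4 of the 6 were called lower, where 3.82% of all miRNAs were called lower and 6.21% in either direction. Without shStau2 replicate 3 the unblocked fit called 1 member in place of 2 (miR-29a-5p), and without replicate number 4 the blocked fit called 1 in place of 4, again miR-29a-5p.

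The guide miR-29b-3p stood at 789, 708, 648 and 503 CPM in shStau2 replicates 1 to 4, against 1492, 1663, 1320 and 1444 CPM in shNTC replicates 1 to 4. Every shStau2 library lay below every shNTC library, and the highest shStau2 library, replicate 1, was well under the lowest shNTC library, replicate 3. The ratio of the means was 0.447, and the log2 fold change was -1.16 (SE 0.19), or -1.18 (SE 0.20) with the block. Within the same replicate number the log2 difference ranged from -1.52 to -0.92. Without shStau2 replicate 4 the log2 fold change was -1.05.

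The partner strand miR-29a-5p stood at 9.30, 5.34, 7.77 and 7.44 CPM in shStau2 replicates 1 to 4, against 18.3, 21.9, 17.3 and 16.8 CPM in shNTC replicates 1 to 4. The groups did not overlap. The ratio of the means was 0.402 and the log2 fold change -1.31 (SE 0.20), or -1.32 (SE 0.18) with the block. The differences in replicate pairs 1, 3 and 4 lay between -1.18 and -0.98, and that of number 2 was -2.03 on the log2 scale, where the shStau2 library had 23 counts.

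The guide miR-29a-3p, the bulk of the family, stood at 5131, 5135, 4857 and 3388 CPM in shStau2 replicates 1 to 4, against 8410, 8740, 6527 and 5878 CPM in shNTC replicates 1 to 4. These groups did not overlap either, and replicate 4 was the lowest library within each group. The log2 fold change was -0.68 (SE 0.22), not called, and -0.68 (SE 0.11) with the block, where it was called, as it was by DESeq2 without the block. The differences within replicate numbers lay between -0.80 and -0.43. Without shStau2 replicate 4 the log2 fold change was -0.56.

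The 3 strands that come from chromosome 13 alone differed less. MiR-29b-5p ranged from 28.5 to 37.3 CPM in shStau2 and from 39.4 to 46.9 CPM in shNTC, without overlap, with a log2 fold change of -0.37 (SE 0.13). With the block it was called in edgeR's fit (-0.37, SE 0.10) but not by DESeq2, and it was lower in 4 of 4 pairs. MiR-29c-3p ranged from 860 to 1168 CPM in shStau2 and from 1092 to 1277 CPM in shNTC, which overlap, with a log2 fold change of -0.20 (SE 0.15, 95% interval -0.52 to 0.13). MiR-29c-5p ranged from 61.2 to 81.9 CPM in shStau2 and from 71.8 to 89.0 CPM in shNTC, with a log2 fold change of -0.17 (SE 0.13, 95% interval -0.46 to 0.11). Neither miR-29c strand was called with or without the block.

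Summing the 3 guides removes any exchange of reads between them. The sum stood at 6970, 6850, 6670 and 4750 CPM in shStau2 replicates 1 to 4, against 11000, 11700, 9070 and 8420 CPM in shNTC replicates 1 to 4. The sums did not overlap, and their means were 6311 ± 1047 and 10040 ± 1545 CPM (SD, n = 4 each), a ratio of 0.629. The mean log2 difference of the sums was -0.67, and -0.54 without shStau2 replicate 4. With miR-29a-3p and miR-29c-3p merged into a single name, the log2 fold change of the merged name was -0.60.

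**Figure D1:**
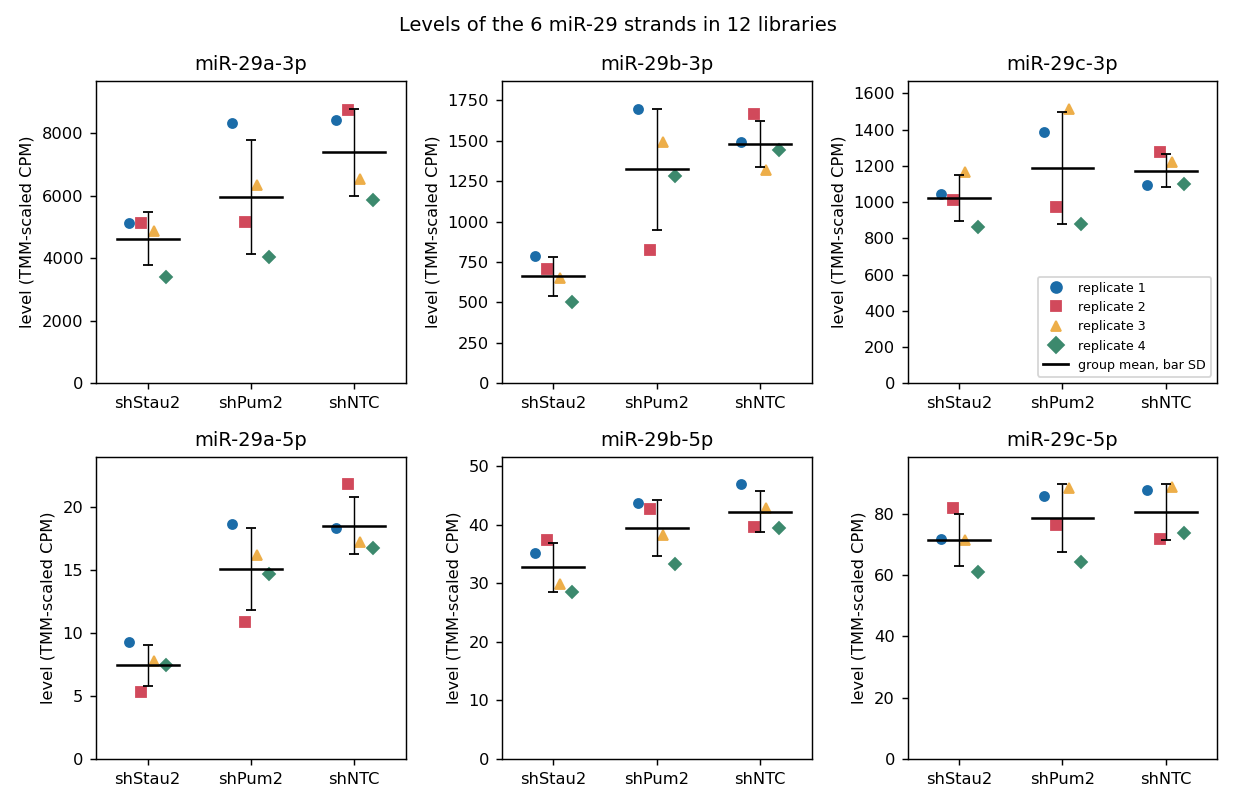
Level in TMM-scaled CPM (vertical axes, from 0, a separate scale per panel) of the 6 miR-29 strands in shStau2, shPum2 and shNTC libraries; points are libraries, coloured by replicate number, with the group mean and SD. The 4 shStau2 libraries lie below all 4 shNTC libraries for miR-29a-3p, miR-29b-3p, miR-29a-5p and miR-29b-5p, and overlap with them for both miR-29c strands. The share of all miRNAs that separate in this way was not computed.

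The comparison of shStau2 with shPum2 set Stau2 depletion against cultures with another active shRNA. It shares its shStau2 libraries with the comparison above, and it too was known when the family was picked. All 6 members had lower means in shStau2, with a median log2 fold change of -0.32 against 0.01 over all miRNAs. Again 2 of the 6 were called lower in edgeR's fit, where 0.478% of all miRNAs were called lower, and with the block 2 of the 6, where 2.39% were called lower and 3.98% in either direction. Both calls ended (0 members called) without shStau2 replicate 2, 3 or 4, without shPum2 replicate 1, 3 or 4, and without shNTC replicate 1 or 3, and 1 remained without shNTC replicate 4. The block left 1 call without replicate number 1, 3 or 4.

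MiR-29b-3p stood at 789, 708, 648 and 503 CPM in shStau2 replicates 1 to 4, against 1699, 822, 1490 and 1282 CPM in shPum2 replicates 1 to 4. The groups did not overlap, but shPum2 replicate 2 lay close to the shStau2 range. The log2 fold change was -1.0 (SE 0.19), with a difference of -0.22 in number 2 and of -1.35 to -1.11 in the other numbers. Without shPum2 replicate 2 it was -1.19, without shPum2 replicate 1 -0.88 and without shStau2 replicate 4 -0.89.

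MiR-29a-5p stood at 9.30, 5.34, 7.77 and 7.44 CPM in shStau2 replicates 1 to 4, against 18.7, 10.9, 16.2 and 14.7 CPM in shPum2 replicates 1 to 4, again without overlap. Its log2 fold change was -1.02 (SE 0.20), and the differences within replicate numbers were the most even of any member, from -1.06 to -0.98. Without shPum2 replicate 2 its log2 fold change was -1.17, and without shStau2 replicate 2 it was -0.89. MiR-29a-3p overlapped between these groups, with 3388 to 5135 CPM in shStau2 and 4045 to 8326 CPM in shPum2, and its log2 fold change was -0.37 (SE 0.22). That value was -0.25 without shStau2 replicate 4, -0.45 without shPum2 replicate 2 and -0.18 without shPum2 replicate 1. It was lower in shStau2 in 4 of 4 pairs, by 0.01 to 0.70 on the log2 scale. The remaining strands, miR-29b-5p (-0.27, SE 0.13), miR-29c-3p (-0.22, SE 0.15) and miR-29c-5p (-0.14, SE 0.13), overlapped as well and were not called. Without shPum2 replicate 3 miR-29c-3p had -0.08.

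The comparison of shPum2 with shNTC was not the one on which the family was picked, and here the edgeR test applies. Both groups were known to lie above shStau2 when the family was picked, which can favour a small difference between them. None of the 6 members passed: the adjusted p was 0.982 for each in edgeR's quasi-likelihood test. No miRNA of the 628 was called (0%), 9 had an unadjusted p under 0.05, none of them a member, and DESeq2 called 0. This fit does not use the pairing by replicate number, so it cannot show that the members were unchanged. The log2 fold changes of the members had a median of -0.13, against 0.00 over all miRNAs. The guide miR-29a-3p had a log2 fold change of -0.31 (95% interval -0.78 to 0.17), its partner miR-29a-5p -0.29 (-0.68 to 0.10), and the guide miR-29b-3p -0.16 (-0.56 to 0.24). For the chromosome 13 strands it was -0.10 (-0.38 to 0.18) for miR-29b-5p, 0.02 (-0.30 to 0.35) for miR-29c-3p and -0.03 (-0.32 to 0.25) for miR-29c-5p. The intervals of miR-29a-5p and miR-29b-3p end short of -1.31 and -1.16, their values in shStau2 against shNTC. Those values have intervals of their own (-1.73 to -0.89 and -1.57 to -0.75). They were known when the family was picked, and they rest on the same shNTC libraries. Setting intervals beside shStau2 estimates is therefore a description, and a difference between the 2 shRNAs was not tested this way. The shPum2 intervals of miR-29a-3p, miR-29b-5p, miR-29c-3p and miR-29c-5p contain the shStau2 estimates of these strands (-0.68, -0.37, -0.20 and -0.17). This depends on the fit. With the block the interval was -0.57 to -0.09 for miR-29a-3p and -0.31 to 0.10 for miR-29b-5p. Both end short of the blocked shStau2 estimates (-0.68 and -0.37). The blocked intervals of the miR-29c strands still contain theirs (-0.21 for miR-29c-3p and -0.17 for miR-29c-5p).

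With the block the estimate for miR-29a-3p was -0.33 (SE 0.11, edgeR adjusted p = 0.417), and it was lower in shPum2 in 4 of 4 pairs. MiR-29a-3p was the member with an unadjusted p under 0.05 in that fit, where 46 of the 628 miRNAs had one. After adjustment 1 of 628 miRNAs (0.159%) was called, and it was not from the family. The 4 pairs were uneven. Numbers 1 and 3 differed by -0.02 and -0.04 on the log2 scale, number 4 by -0.54 and number 2 by -0.76.

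The library shPum2 replicate 2 stood low for the strands with the largest differences in shStau2. It had 822 CPM of miR-29b-3p against 1282 to 1699 in the other shPum2 libraries, and 10.9 CPM of miR-29a-5p against 14.7 to 18.7. For miR-29b-5p it had 42.6 CPM, within the 33.3 to 43.7 CPM of the other 3. Without it the log2 fold change of shPum2 against shNTC was 0.03 for miR-29b-3p, and that of miR-29a-5p was -0.15.

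**Figure D2:**
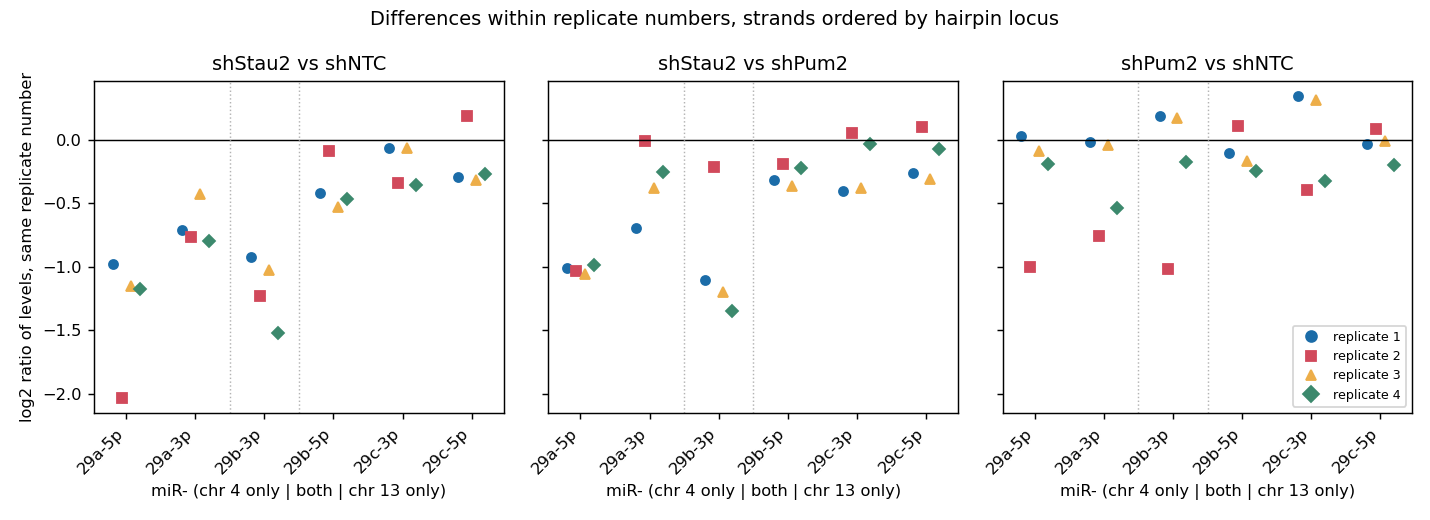
Log2 ratio of the levels of 2 libraries with the same replicate number (vertical axis) for the 6 strands, in 3 panels for shStau2 over shNTC, shStau2 over shPum2 and shPum2 over shNTC; dotted lines separate strands from chromosome 4, from both loci and from chromosome 13. In shStau2 over shNTC the miR-29a-5p and miR-29b-3p points lie at -0.92 or lower and the miR-29c points between -0.36 and 0.19, and in shPum2 over shNTC number 2 lies lowest for miR-29a-3p, miR-29a-5p, miR-29b-3p and miR-29c-3p.

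Ratios of 2 counts from the same library need no scaling, and they show how unevenly the strands differed between groups. The guide-to-partner ratio of miR-29b was 22.4, 19.0, 21.8 and 17.6 in shStau2 replicates 1 to 4, against 31.8, 42.0, 30.8 and 36.6 in shNTC replicates 1 to 4. The groups did not overlap. This ratio joins a guide of both loci to a partner of chromosome 13 alone. The miR-29a ratio moved the other way, with 456 to 963 guide counts per partner count in shStau2 and 350 to 459 in shNTC, ranges that overlap narrowly. It was higher in shStau2 in 4 of 4 pairs, by 0.27 to 1.27 on the log2 scale. Its partner counts in shStau2 were only 23 to 41, with counting intervals of ± 31.9% to ± 43.3%. The largest difference, in number 2, rests on 23 counts, so the size of this shift is uncertain. The miR-29c ratio was 12.3 to 16.4 in shStau2 and 12.4 to 17.8 in shNTC, higher in 2 pairs and lower in 2.

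Among the guides, the order of miR-29b-3p and miR-29c-3p turned over. There were 0.755, 0.701, 0.555 and 0.585 counts of miR-29b-3p per count of miR-29c-3p in shStau2 replicates 1 to 4, against 1.37, 1.30, 1.08 and 1.31 in shNTC replicates 1 to 4. In shPum2 the ratio was 1.23, 0.844, 0.982 and 1.46, so these guides could not be ranked there. The share of miR-29b-3p in the guide counts was 10.5 ± 0.668% in shStau2, 15.8 ± 3.66% in shPum2 and 14.9 ± 1.57% in shNTC (SD, n = 4 each). That of miR-29c-3p was 16.3 ± 1.71%, 14.1 ± 1.68% and 11.9 ± 1.69% in the same groups. MiR-29a-3p kept 73.2 ± 1.52% in shStau2, 70.0 ± 4.26% in shPum2 and 73.3 ± 2.98% in shNTC. Against miR-29c-3p, miR-29a-3p was also lower in shStau2, at 3.94 to 5.08 counts per count, than in shNTC, at 5.35 to 7.71.

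Between shPum2 and shNTC the guide-to-partner ratios could be tested. The log2 difference was -0.03 (SE 0.19) for miR-29a, -0.10 (SE 0.27) for miR-29b and 0.02 (SE 0.15) for miR-29c. None passed (exact permutation p = 0.914, 0.829 and 0.886, two-sided, n = 4 each; adjusted p = 0.914 for each over the 3 tests; the smallest p this design allows is 0.0286). These tests take the libraries as unpaired, though the replicate numbers pair them. A paired version could not decide, because 4 pairs do not allow a p under 0.05. The miR-29b ratio was 38.9, 19.3, 39.0 and 38.5 in shPum2 replicates 1 to 4, so that replicate 2 alone lay in the range of the shStau2 libraries. Without it the log2 difference for miR-29b was 0.15.

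**Figure D3:**
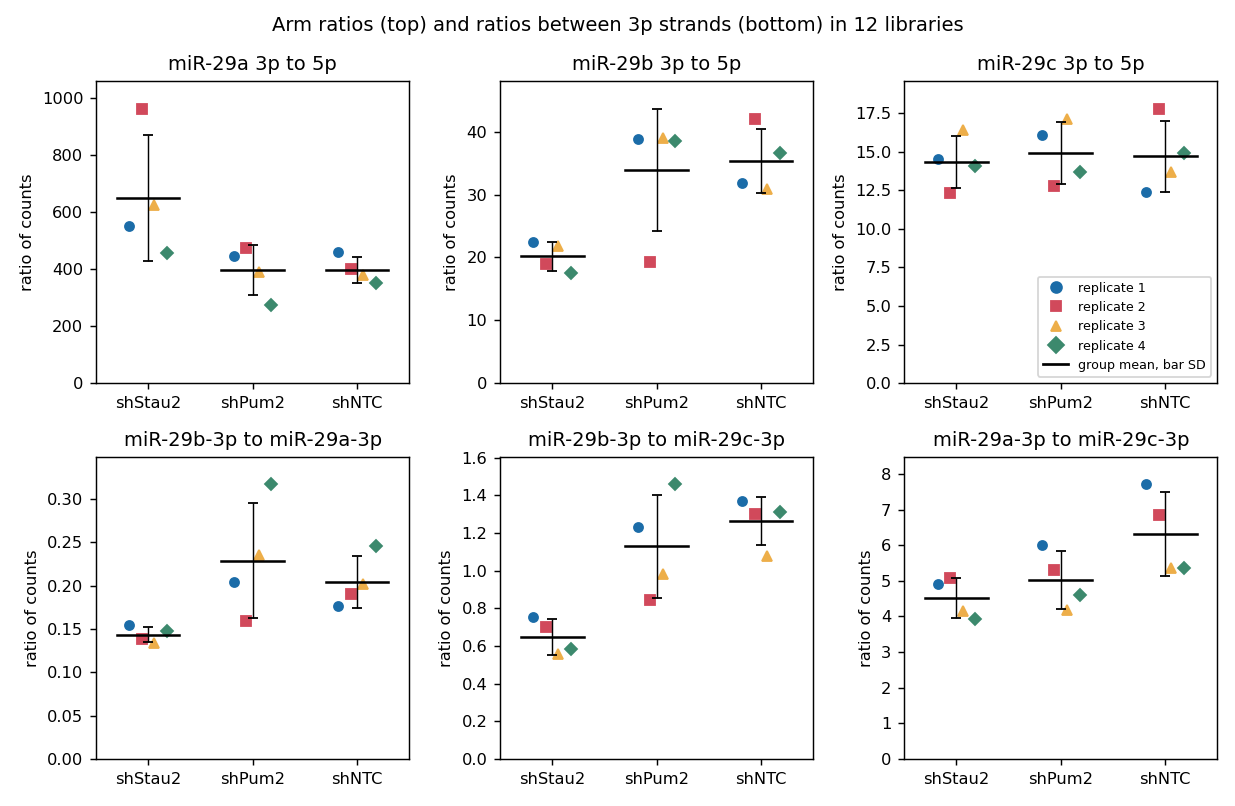
Ratios of counts within a library (vertical axes, from 0): guide to partner strand in the top row and guide to guide in the bottom row, for the 4 libraries of shStau2, shPum2 and shNTC, with group mean and SD. The miR-29b guide-to-partner ratio is 17.6 to 22.4 in shStau2 and 30.8 to 42.0 in shNTC, and the miR-29b-3p to miR-29c-3p ratio lies below 1 in all shStau2 libraries and above it in all shNTC libraries.

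The replicate numbers left their own mark on some of the strands. MiR-29a-3p in replicate 4 lay below its group mean by 0.43 in shStau2, 0.51 in shPum2 and 0.31 in shNTC on the log2 scale, and in replicate 1 above it by 0.17, 0.53 and 0.21. MiR-29b-5p, miR-29c-3p and miR-29c-5p were below their group mean in replicate 4 in 3 of 3 groups too. For miR-29b-3p replicate 4 deviated by -0.38 in shStau2, but by 0.00 in shPum2 and -0.03 in shNTC. For miR-29a-5p it deviated by 0.02 in shStau2, -0.01 in shPum2 and -0.14 in shNTC.

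Names with the pattern closest to the family were looked for among the 442 other miRNAs with a mean of at least 10 CPM. Likeness was measured as the root-mean-square difference of log2 levels, centred on each name's own mean, over the 12 libraries that share group and replicate structure. The closest to miR-29a-3p was miR-3556b (0.09), then miR-3587 (0.14) and miR-23a-3p (0.15), a guide of the miR-23a cluster known from astrocytes, against a median of 0.46 over the candidates. The closest to miR-29b-3p were miR-3587 (0.27), miR-455-3p (0.31) and miR-455-5p (0.31), the 2 strands of a hairpin known from cartilage, against a median of 0.62. Among the members themselves miR-29a-5p was nearer to miR-29b-3p, at 0.23, than any of these.

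Of these neighbours, miR-3556b and miR-3587 are annotated on the strand opposite the miR-29 hairpins. Another such name, miR-3556a, was added after its place was seen. Their RefSeq sequences (GRCr8) are shown because of what they pair with.
miR-3556a, opposite miR-29a-3p on chromosome 4: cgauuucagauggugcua
miR-3587, opposite miR-29b-3p of Mir29b1 on chromosome 4: aacacugauuucaaauggugc
miR-3556b, opposite miR-29c-3p on chromosome 13: accgauuucaaauggugcua

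Each is the exact reverse complement of the guide it lies opposite, over its whole length of 18, 21 and 20 bases for miR-3556a, miR-3587 and miR-3556b. MiR-3587 complements miR-29b-3p of either locus. MiR-3556b differs at 1 position from the complement of miR-29a-3p, and at 1 position from that of miR-29b-3p. These names also had lower means in shStau2, which for miR-3556b and miR-3587 follows from their choice by pattern. None of them was called without the block. With it miR-3556b and miR-3587 were called lower against shNTC, where 3.82% of all miRNAs were, and none was called against shPum2. The shStau2 and shPum2 libraries overlapped for each name. MiR-3556b had 171 ± 24.4 CPM in shStau2, 228 ± 82.8 in shPum2 and 258 ± 48.7 in shNTC (SD, n = 4 each), and miR-3587 had 84.1 ± 12.2, 114 ± 31.2 and 138 ± 11.9 CPM in the same groups. MiR-3556a was scarce, with 15 to 37 counts in a library. Its counts were 0.0562% to 0.144% of miR-29a-3p, a spread of 2.57-fold over the libraries.

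MiR-3556b was picked as the name closest to miR-29a-3p over these 12 libraries, so a steady ratio between them follows from that choice. In every library its counts were a nearly fixed share of miR-29a-3p, from 3.40% to 4.01%, a spread of 1.18-fold over the 12 libraries. Against miR-29c-3p, the guide it lies opposite, its counts were 15.7% to 26.5%, a spread of 1.69-fold, with 16.7 ± 0.831% in shStau2 and 22.0 ± 3.91% in shNTC. MiR-3587 likewise varied less against miR-29a-3p (1.65% to 2.27%, 1.37-fold) than against its own complement miR-29b-3p (7.15% to 13.4%, 1.87-fold). That restates its closer likeness to miR-29a-3p (0.14) than to miR-29b-3p (0.27). Its share of miR-29b-3p was 12.8 ± 0.711% in shStau2, 8.78 ± 1.33% in shPum2 and 9.35 ± 0.578% in shNTC. The sources used here do not say how reads were placed on these 2 strands, so counts of a miR-29 guide and of the name opposite it cannot be fully told apart.

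**Figure D4:**
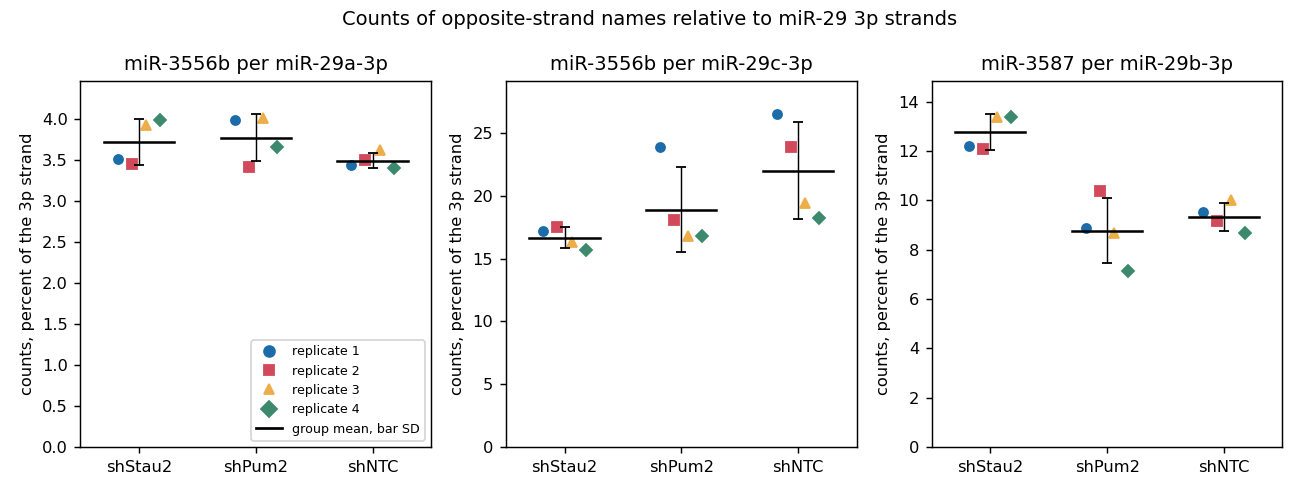
Counts of miR-3556b as a percent of miR-29a-3p (left) and of miR-29c-3p (middle), and of miR-3587 as a percent of miR-29b-3p (right), vertical axes from 0, in the 4 libraries of shStau2, shPum2 and shNTC, with group mean and SD. The left panel spans 3.40% to 4.01% over all libraries, the middle panel 15.7% to 26.5%, and in the right panel the shStau2 libraries lie above all others. MiR-3556b was picked as the name closest to miR-29a-3p over these libraries, so the narrow span on the left follows from that choice.

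Markers of other cell types were set beside these values, since miR-29 is not confined to neurons. The 9 astrocyte-linked miRNAs, which leave out miR-29, were all detected, with none at 0. They summed to 5421 to 7568 CPM in shStau2, 6576 to 8925 in shPum2 and 7631 to 11330 in shNTC. The shStau2 and shNTC sums did not overlap, but the highest shStau2 sum (7568 CPM) lay close to the lowest shNTC sum (7631 CPM). MiR-21-5p alone had a mean of 1648 CPM in shStau2 and 3298 CPM in shNTC. In shStau2 against shNTC 8 of the 9 had a log2 fold change below 0 (median -0.49, against 0.00 over all miRNAs). Without the block 0 were called, and with it 4 were called lower, where 3.82% of all miRNAs were. These 4 were miR-21-5p (-0.97), miR-21-3p (-1.18), miR-23a-3p (-0.49) and miR-27a-3p (-0.51), all log2 fold changes with the block. MiR-24-3p, the most abundant of the list in shStau2 and shPum2, had -0.14 and was not called, and miR-21-5p was the most abundant in shNTC. In shStau2 against shPum2 9 of 9 were below 0 (median -0.39) and 0 were called in either fit, and in shPum2 against shNTC (median -0.11) miR-23a-3p was called lower with the block (-0.38). Their part in the miR-29 values was not tested.

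The 8 neuronal miRNAs had a median log2 fold change of -0.01 in shStau2 against shNTC, and 0 were called with or without the block. The most abundant, miR-9a-5p of neural progenitors and neurons, had 0.01. The 4 oligodendrocyte miRNAs (median -0.19), led by miR-338-3p (-0.07), had 0 calls in either fit. Of the microglia or blood list 4 of 7 names were tested (median -0.19), and miR-155-5p, its most abundant name, was called lower with the block (-0.54). Against shPum2 miR-155-5p (-0.61) and miR-142-3p (-0.49) were called lower with the block. In the vessel or mesenchyme list of 6 (median -0.08) miR-126a-5p was called lower with the block (-0.46), and its most abundant name, miR-126a-3p, was not (-0.25). Over all miRNAs 3.82% were called lower with the block against shNTC and 2.39% against shPum2. Of the 7 microglia or blood names 6 were among the deposited names, and 0 of these were at 0 in all libraries.

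MiR-29b-3p was also set beside 7 other miRNAs with a known degradation trigger in mammals, among them miR-7a-5p, which the Cyrano RNA removes. In shStau2 against shNTC their median log2 fold change was -0.05, and 0 of 7 were called in either fit. In shStau2 against shPum2 the median was -0.06 and 0 of 7 were called without the block, while with it miR-7a-5p, the most abundant, was called higher (0.24), where 1.59% of all miRNAs were.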

How the data were processed

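Small RNA was measured in 12 libraries, 4 each of shStau2, shPum2 and shNTC neurons. The deposited tables hold whole-number counts per small RNA name, 1 table per library, not normalised by the authors. Per the labels' protocols the library kit tags each molecule with a unique molecular identifier, and the submitters' processing notes name the build Rnor 6.0. The aligner, the counter, its strand setting, and whether molecules or reads were counted are not given in the sources used here. If reads were counted, amplification adds to the apparent depth, so the exact Clopper-Pearson intervals given cover counting error only.

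The 685 miRNA names of 805 names were used, and the 120 piRNA names (at most 0.989% of a library) were left out. Total miRNA counts lay between 3804798 and 5378626. The test on these counts was that of edgeR (version 4.0.16, R 4.3.3): TMM scaling, the filterByExpr filter by group (628 names kept, 57 removed, all 6 members kept), a joint fit of the 12 libraries and robust quasi-likelihood tests, two-sided, with Benjamini-Hochberg adjustment over the names tested and a threshold of 0.05.  Levels are TMM-scaled CPM. Arm ratios were compared in scipy 1.17.1 with exact permutation tests that take the libraries as unpaired. Alternatives were DESeq2 1.42.0, other scalings, filters and sample sets, a replicate block, and leaving out libraries.

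Same-number libraries of different groups deviated together from their group means: r lay between 0.363 and 0.569 across miRNAs for the 12 same-number pairs, and between -0.402 and 0.134 for the 36 others, and 12 of 12 libraries correlated best with their own number. The numbers were therefore taken to pair the libraries. The labels do not say what a number stands for.

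The members and the lists of markers and of miRNAs with a known degradation trigger were chosen with earlier results of these data known. Named were all members, the 3 names with the pattern closest to miR-29b-3p and to miR-29a-3p (smallest root-mean-square difference of centred log2 CPM, mean of at least 10 CPM), and, of each list, the most abundant name and those past the threshold. Sequences were matched by name to RefSeq tables of build GRCr8, which gave all 6 members.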

Additional observations from a re-analysis of the deposited data

Results flagged for a closer look

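In the library shStau2 replicate 4, miR-29a-3p stood at 3390 CPM against 4860 to 5140 CPM in the other 3 shStau2 libraries, a gap wider than the rule for a sample far from its group allows. The sum of the 3 guides in the same library was 4750 CPM against 6670 to 6970 CPM. In the library shPum2 replicate 2, the miR-29b guide-to-partner ratio was 19.3 against 38.5 to 39.0 in the other 3 shPum2 libraries. These 3 flags arose among 42 sets of 4 libraries, and chance flags about 1 in 20.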

How the results depend on the processing

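In shStau2 against shNTC 2 of the 6 members were called, and 4 with the replicate block. Leaving out 1 library gave 1 or 2 calls, and the block without 1 replicate number gave 1 to 4 calls. In shStau2 against shPum2 2 members were called, 0 with upper-quartile scaling, 0 in a fit of only the 8 libraries compared, 0 to 2 when 1 library was left out, and 1 to 3 with the block when 1 number was left out. In edgeR's fit the block added the calls of miR-29a-3p and miR-29b-5p in shStau2 against shNTC and changed no other call of a member. DESeq2 called 3 members there with and without the block, among them miR-29a-3p (-0.68 without it) but not miR-29b-5p. Over all miRNAs the calls numbered 2, 39 with the block, 24 with DESeq2 and 42 with DESeq2 and the block in shStau2 against shNTC. In shStau2 against shPum2 they numbered 3, 25 with the block, 9 with DESeq2 and 30 with DESeq2 and the block, and in shPum2 against shNTC 0, 1, 0 and 2 in the same order. In shPum2 against shNTC 3 member estimates close to 0 turned sign. MiR-29c-3p had 0.02, against -0.01 with the block, -0.002 with upper-quartile scaling and -0.005 with DESeq2 and the block. Leaving out 1 library gave -0.119 to 0.138 for miR-29c-3p, -0.097 to 0.049 for miR-29c-5p and -0.291 to 0.028 for miR-29b-3p. The block without 1 number gave -0.116 to 0.134 for miR-29c-3p (-0.112 without number 3), -0.058 to 0.011 for miR-29c-5p and -0.3 to 0.077 for miR-29b-3p. The log2 differences of the guide-to-partner ratios, each with 1 library left out, ranged from -0.121 to 0.14 for miR-29a, -0.19 to 0.148 for miR-29b and -0.052 to 0.121 for miR-29c. The cause of these changes was not tested. Depth limits miR-29a-5p, with 23 to 101 counts in a library.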
